A study of Mus musculus with 14 samples.

Results

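The genes described are 10 receptors, or receptor chains, through which blood-forming cells sense cytokines: Kit, Flt3, Csf1r, Csf2rb, Il3ra, Csf3r, Epor, Il6ra, Il6st and Il12rb1. They were found as the probe sets (groups of oligonucleotides on an array that read one transcript) whose platform annotation names exactly 1 of these symbols. This gave 18 of 45101 probe sets, and 10 of the 18194 genes of the table. Averaged over the 14 arrays, the brightest probe set stood for its gene, and the other 8 served as a check. The rule uses names and brightness and no difference between levels, although the 10 receptors were picked with earlier results of these data known.

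Expression was measured on 14 Affymetrix arrays in LSK cells of mouse bone marrow, which lack lineage markers and carry Sca1 and Kit, the fraction that holds hematopoietic stem cells and multipotent progenitors. All mice were hCD34 x H2BGFP double transgenic animals on a C57BL/6 background, in which the human CD34 promoter drives, through a Tet-off system, a histone H2B fused to GFP. Every group had received doxycycline in its drinking water (1 mg/ml) over 12 weeks, starting at 6 to 8 weeks of age. Doxycycline stops the labelling, so GFP is diluted at each division. Cells were then sorted into 5 ranked levels, GFP0 with the least label to GFP4 with the most, about 1 to 2 divisions apart. There were 2 arrays of GFP0, 3 each of GFP1 and GFP2, 2 of GFP3 and 4 of GFP4. The label can only be made in cells in which the CD34 promoter was active, and dilution and a weak label at the start cannot be told apart in GFP0 cells. The labels call the arrays biological replicates but do not name the animals, so the p-values reflect only how far these sorted samples spread, which may in part be technical.

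Kit, Flt3 and Csf1r are receptor tyrosine kinases: their ligands join a pair of receptor chains, whose own kinase domains then phosphorylate each other. The other receptors have no kinase of their own and use Janus kinases bound to the inner tails of signalling chains, for Il6ra those of its partner Il6st. These kinases phosphorylate STAT factors, and SOCS family proteins made in response act as brakes on the same receptors. In bone marrow, Kit and its ligand stem cell factor maintain stem cells, Flt3 is known from multipotent progenitors with lymphoid potential, and the colony-stimulating factor receptors from the myeloid lineages.

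All levels are log2 expression. They may be compared between arrays for 1 gene, but not between genes, because probe sets differ in how strongly they bind. In whole sorted samples, fewer cells of a type and less RNA per cell cannot be told apart. Pairs of arrays correlated with r between 0.93 and 0.99 within a group and between 0.91 and 0.99 across groups. GFP0 replicate 1 and GFP4 replicate 1 had the narrowest interquartile ranges, 2.09 and 2.21, against up to 2.73 elsewhere. GFP4 replicate 2 stood alone on the third principal component of all genes, with a score of 68.7 where the next array had 8.53. Some of the slopes, differences and counts below are given with and without such an array. The correlations were not recomputed with these arrays left out by name, and only some are given without the 2 arrays farthest from a median.

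The labelled phenotype was checked on its defining genes, for which the table has no detection calls. Ptprc, which encodes CD45, lay between 9.90 and 12.7 and Cd34 between 9.73 and 12.0. Itgam, a myeloid lineage marker, lay between 4.92 and 5.60, below the table median of 7.03, while Cd3e was between 7.10 and 7.89 and Cd4 between 8.08 and 8.78. Cd8a lay between 6.99 and 8.74, with 8.74 and 8.20 in the GFP0 arrays. Its GFP4 minus GFP0 of -0.84 did not pass in limma (adjusted p = 0.172). Of 17 measured stem cell genes, 12 rose along the GFP levels in the limma test described next, 0 fell, and their median slope was 0.60 per level. In that test 2.28% of all genes rose and 1.07% fell, so a single gene of a short list says little. In other cell type lists, 2 of 10 early myeloid genes fell, 1 of 15 of neutrophils and monocytes, 3 of 10 of mast cells and basophils, 4 of 11 of erythroid cells, 6 of 15 of lymphoid cells, 0 of 9 of megakaryocytes and 1 of 9 of endothelial and stromal cells, and no gene of these lists rose. The early myeloid count depended on single arrays: it was 6 without GFP4 replicate 2, 3 without GFP1 replicate 3 and 1 without GFP3 replicate 1, and it was 0 without either GFP0 array, GFP3 replicate 2, or GFP4 replicate 3 or 4. Without GFP0 replicate 1 the stem cell count was 9.

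Of the 10 receptors, 1 rose from GFP0 to GFP4 and none fell. Il12rb1 was 2.03-fold higher in GFP4 than in GFP0. The largest estimates downwards were those of Csf1r, a 3.81-fold lower mean in GFP4, and of Epor, 1.59-fold lower, and the largest other estimates upwards were those of Il6st, 2.03-fold, Il6ra, 1.95-fold, and Kit, 1.55-fold, but none of these passed the test. All arrays were fitted together in limma, with p-values adjusted by Benjamini-Hochberg over all genes and a threshold of 0.05. The slope is the change in log2 expression per GFP level. The slope passed for 1 receptor of 10, where 3.35% of all genes passed (2.28% higher and 1.07% lower), and GFP4 against GFP0 passed for 1 of 10, where 1.68% of all genes did (1.25% higher and 0.429% lower). At an unadjusted p under 0.05 the slope passed for 5 of 10 receptors and for 16.7% of all genes, and GFP4 against GFP0 for 5 of 10 and 14.7%. The median slope of the receptors was 0.03 per level and that of all genes -0.01, and their median differences between GFP4 and GFP0 were 0.29 and -0.04.

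**Figure D1:**
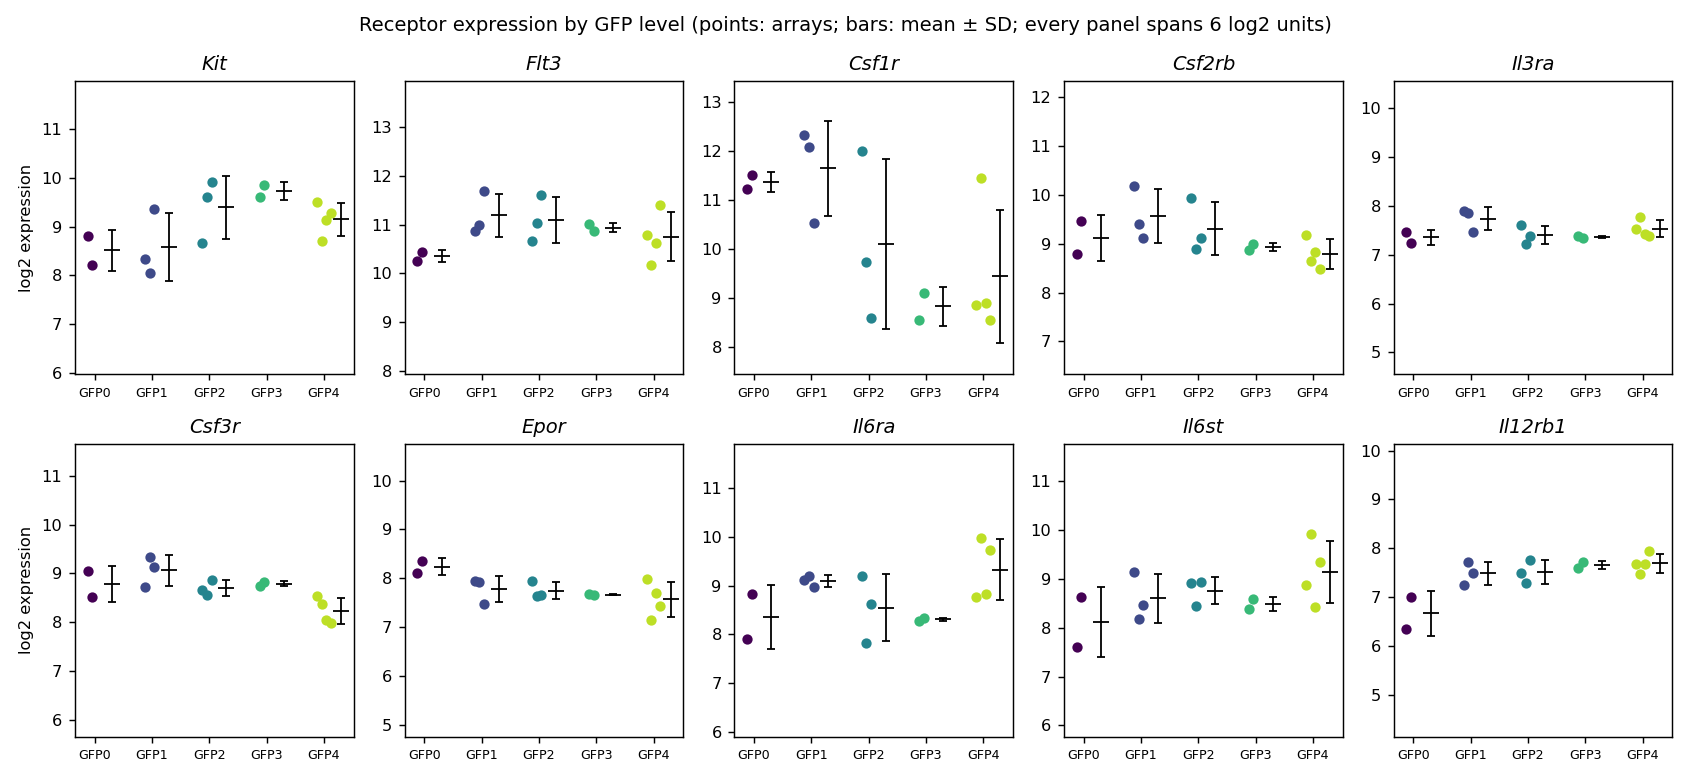
Log2 expression of the 10 receptors (vertical axes) by GFP level (horizontal axes), with 1 point per array and bars for the mean ± SD of each level. Il12rb1 is lowest in both GFP0 arrays, Csf1r runs from above 12 to below 9, and the single high GFP4 point of Csf1r is replicate 2.

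No step between neighbouring levels passed for any receptor, nor did it for any gene (0% in each of the 4 steps). At an unadjusted p in limma, 2 receptors passed for GFP1 against GFP0 (10.8% of all genes), 1 for GFP2 against GFP1 (2.71%), 0 for GFP3 against GFP2 (1.36%) and 2 for GFP4 against GFP3 (3.94%). The test of any difference between levels passed for 0 receptors and 0.698% of all genes, with 3 receptors at an unadjusted p and 12.8% of all genes. A departure from a straight line passed for no gene (0%), with 0 receptors and 7.01% of all genes at an unadjusted p. The order of levels given for each receptor below is therefore an order of means whose neighbours were not told apart. Shares of all genes without overlap were counted only for GFP4 against GFP0. Where arrays of other levels are said below to lie apart, no such share is at hand.

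**Figure D2:**
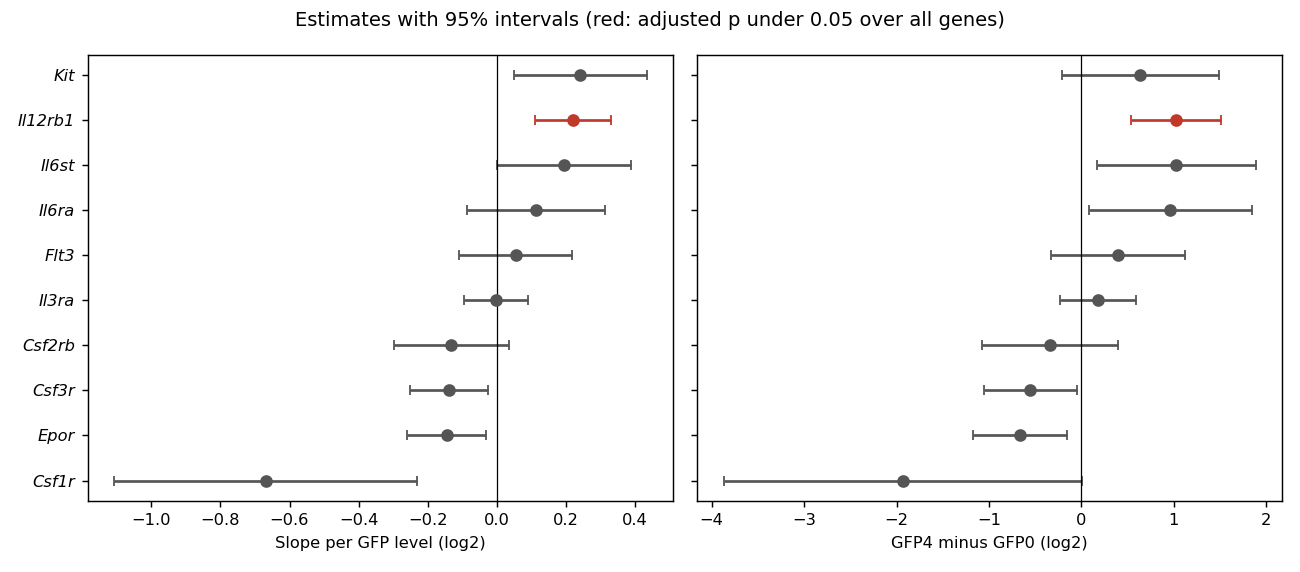
Slope per GFP level (left, log2 per level) and difference between GFP4 and GFP0 (right, log2) of each receptor, as points with 95% intervals from limma. Il12rb1, in red, passed the adjusted threshold in both panels, and the interval of Csf1r is the widest.

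Kit encodes the receptor of stem cell factor. Its protein was part of the sort gate, so the values describe mRNA within cells already chosen for the protein. The GFP0 arrays read 8.81 and 8.22 and the GFP1 arrays 8.34, 8.05 and 9.37. The GFP2 arrays read 8.67, 9.60 and 9.91, the GFP3 arrays 9.60 and 9.86, and the GFP4 arrays 9.50, 8.70, 9.13 and 9.27. Both GFP3 arrays lay above every GFP4 and GFP0 array, while the GFP4 and GFP0 arrays overlapped. Means ran from 8.51 ± 0.42 (SD, n = 2) in GFP0 and 8.58 ± 0.69 (n = 3) in GFP1 to 9.39 ± 0.65 (n = 3) in GFP2, 9.73 ± 0.18 (n = 2) in GFP3 and 9.15 ± 0.34 (n = 4) in GFP4. The slope was 0.24 ± 0.09 per level (SE; 95% interval 0.05 to 0.43; limma adjusted p = 0.178), and GFP4 exceeded GFP0 by 0.64 ± 0.39 (adjusted p = 0.504). The other Kit probe set had a similar slope, 0.20 (adjusted p = 0.214), yet correlated with the brighter one at only r = 0.21 over the 14 arrays. With the mean of both as the gene, the slope was 0.22 and passed (limma adjusted p = 0.0408).

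Flt3 encodes the receptor of FLT3 ligand. Its mean was lowest in GFP0, 10.35, with arrays at 10.27 and 10.44, and highest in GFP1, 11.19, with arrays at 10.88, 11.00 and 11.70. The GFP4 arrays lay between 10.18, the lowest value of the 14 arrays, and 11.40, and overlapped GFP0. The slope was 0.05 ± 0.08 per level (95% interval -0.11 to 0.22; limma adjusted p = 0.779). GFP1 lay above GFP0 by 0.84 ± 0.35 without overlap, which did not pass (adjusted p = 0.447).

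Csf1r, the receptor of macrophage colony-stimulating factor, varied most of the 10. The GFP0 arrays read 11.22 and 11.51 and the GFP1 arrays 12.33, 12.08 and 10.54. The GFP2 arrays spread from 12.00 through 9.73 to 8.58. The GFP3 arrays read 8.54 and 9.11, and the GFP4 arrays 8.85, 11.45, 8.90 and 8.54. In GFP3 and GFP4 all arrays but 1 were at or below 9.11, but 1 array of 3 in GFP2 and 1 of 4 in GFP4 were as high as those of GFP0, so GFP4 and GFP0 overlapped. The distance between the highest and the lowest array was 3.79, and 2.58% of all genes had a distance of 3 or more. Means were highest in GFP1, 11.65 ± 0.97 (SD, n = 3), then 11.37 ± 0.21 (n = 2) in GFP0, 10.10 ± 1.74 (n = 3) in GFP2, 9.43 ± 1.35 (n = 4) in GFP4 and 8.82 ± 0.40 (n = 2) in GFP3.

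The slope of Csf1r was -0.67 ± 0.20 per level (SE; 95% interval -1.11 to -0.23), which did not pass (limma adjusted p = 0.0990). GFP4 minus GFP0 was -1.93 ± 0.90 (adjusted p = 0.342). Without GFP4 replicate 2 the slope was -0.80 and passed (adjusted p = 0.0218), while the difference was -2.60 and did not (adjusted p = 0.104). Of the other Csf1r probe sets, 1 followed the brightest with r = 0.94 over 14 arrays and a slope of -0.27, and 1 with r = 0.74 and a slope of -0.09. Neither passed, with adjusted p of 0.227 and 0.508 over all probe sets. With the mean of the probe sets as the gene, the slope was -0.34 (adjusted p = 0.119) and the difference -0.96 (adjusted p = 0.397).

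Csf1r moved with the mean of a list of early myeloid genes, the granule proteases and factors of granulocyte and monocyte precursors. The mean of the 10 measured early myeloid genes was 11.05 and 11.51 in GFP0 and between 10.46 and 12.59 in GFP1. It was 12.12, 11.10 and 9.77 in GFP2, 9.67 and 9.32 in GFP3, and 8.78, 11.71, 9.30 and 9.08 in GFP4. The 5 arrays with the highest Csf1r were also the 5 with the highest early myeloid mean. In GFP4 replicate 2, Mpo, which encodes myeloperoxidase, read 13.3 and Elane, which encodes neutrophil elastase, 11.2, against at most 9.67 and 7.48 in the other GFP4 arrays. The 10 genes did not all move alike along the levels. A negative slope was found for 9, while that of Gfi1 was 0.32 (limma adjusted p = 0.0989). Prtn3 was nearly flat, with a mean of 13.5 in GFP0 and 13.4 in GFP4. Over the 14 arrays Csf1r correlated with the early myeloid mean at Pearson r = 0.943 (permutation p = 2e-05, 0.0013 adjusted over 65 relations) and Spearman rho = 0.899 (permutation p = 4e-05, adjusted 0.0026). Without the 2 arrays farthest from the median of the early myeloid mean r was 0.939, and r was 0.941 for deviations from the level means. The part of this list in the Csf1r differences was not tested.

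The highest correlation of Csf1r among 11718 searched genes over the 14 arrays was that with Ifi209 (r = 0.951), an interferon-inducible gene. Nrp1, which encodes the co-receptor neuropilin, had r = 0.950 and Irf8, a factor of the monocyte lineage and itself one of the early myeloid genes, r = 0.949. These likenesses describe these arrays.

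Kit and Csf1r ran opposite to each other in the probe sets used. Over the 14 arrays r was -0.869 (permutation p = 0.00017, adjusted 0.00433 over 65 relations) and rho -0.780 (permutation p = 0.00153, adjusted 0.0497). Without the 2 arrays farthest from the Kit median r was -0.852, and for deviations from the level means it was -0.838. Kit also ran against the early myeloid mean (r = -0.782, permutation adjusted p = 0.0200). By ranks this relation did not pass (rho = -0.657, permutation adjusted p = 0.167). Within GFP4, replicate 2 had the lowest Kit and the highest Csf1r of the 4 arrays in these probe sets, and within GFP1, replicate 3 had the highest Kit and the lowest Csf1r of the 3. The other Kit probe set did not show this. It read 8.42 in GFP4 replicate 2, its highest value of the 14 arrays, and 7.32 in GFP1 replicate 3, below the 7.70 of replicate 2. It correlated with Csf1r at r = -0.23 and with the early myeloid mean at r = -0.11, a comparison added after the data were seen. The genes most like Kit were Tspan13 (r = 0.945), Fnbp1l (r = 0.944) and Mzt1 (r = 0.935).

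**Figure D3:**
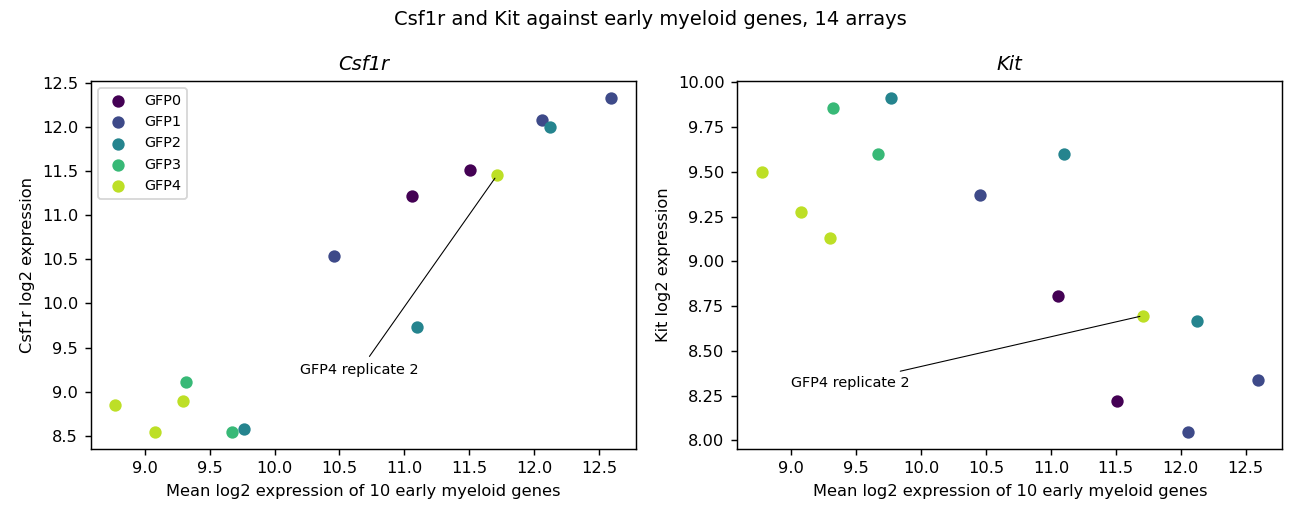
Csf1r (left) and Kit (right) log2 expression on the vertical axes against the mean log2 expression of 10 early myeloid genes on the horizontal axes, with 1 point per array coloured by GFP level. Csf1r goes up and Kit, in the brighter of its probe sets, goes down along the axis, and GFP4 replicate 2 lies among the GFP0 and GFP1 arrays.

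Csf2rb encodes the common beta chain through which interleukin 3, interleukin 5 and GM-CSF signal, and Il3ra the chain that binds interleukin 3. Csf2rb read 8.79 and 9.46 in GFP0, from 9.13 to 10.18 in GFP1, from 8.88 to 9.93 in GFP2, 8.88 and 8.98 in GFP3, and from 8.48 to 9.18 in GFP4. The GFP4 arrays overlapped GFP0, and the slope was -0.13 ± 0.08 per level (95% interval -0.30 to 0.04; limma adjusted p = 0.432). Its other probe set was dim, with a mean of 5.93. It correlated with the one used at r = 0.48 but had a slope of only -0.0074, and GFP4 minus GFP0 was 0.011. A further probe set shared with Csf2rb2, a near-identical gene, read between 6.93 and 8.03 and was left out, and reads of either gene may reach the probe sets named for one.

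Il3ra varied least of the 10 receptors. Its 14 arrays lay between 7.22 and 7.89, and its slope was -0.002 ± 0.04 per level (95% interval -0.09 to 0.09; limma adjusted p = 0.989). GFP1 had the highest mean, 7.73, and GFP0 the lowest, 7.35.

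Csf3r, the receptor of granulocyte colony-stimulating factor, read 9.04 and 8.52 in GFP0 and 8.72, 9.33 and 9.13 in GFP1. The GFP2 arrays read 8.67, 8.55 and 8.87 and the GFP3 arrays 8.75 and 8.82, and the GFP4 arrays were the lowest at 8.54, 8.37, 8.04 and 7.98. All 4 GFP4 arrays lay below the GFP1, GFP2 and GFP3 arrays, and 3 of them below both GFP0 arrays. The separation was narrow, with 8.54 in a GFP4 array against 8.55 in a GFP2 array, and the share of all genes separated this way was not counted. GFP4 minus GFP3 was -0.56 ± 0.23 (limma adjusted p = 0.888), GFP4 minus GFP0 -0.55 ± 0.23 (adjusted p = 0.285) and the slope -0.14 ± 0.05 (95% interval -0.25 to -0.02; adjusted p = 0.195), none past the threshold. Leaving out GFP0 replicate 1, the difference from GFP0 was -0.29 (adjusted p = 0.759). Its nearest gene was Pdgfrb, a receptor tyrosine kinase for platelet-derived growth factor (r = 0.934 over 14 arrays), then Sh2d5 (r = 0.847) and Ifi27 (r = 0.846).

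Epor encodes the erythropoietin receptor. GFP0 read 8.11 and 8.35, GFP1 7.94, 7.92 and 7.47, GFP2 7.94, 7.64 and 7.65, GFP3 7.67 and 7.65, and GFP4 7.99, 7.15, 7.70 and 7.42. All GFP4 arrays were below both GFP0 arrays, as for 7.75% of all genes. The mean was 8.23 ± 0.17 (SD, n = 2) in GFP0 and 7.57 ± 0.36 (n = 4) in GFP4. The difference of -0.67 ± 0.23 (SE; 95% interval -1.17 to -0.16; limma adjusted p = 0.188) and the slope of -0.14 ± 0.05 (adjusted p = 0.175) did not pass.

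The IL-6 receptor has a binding chain, Il6ra, and a signalling chain, Il6st (gp130), which other cytokines of the family such as oncostatin M and LIF share. Their upstream sequences are shown because these chains were the only pair with a positive correlation past the adjusted threshold among the 45 receptor pairs, a choice made after the values were seen. Each is the 250 bases before the RefSeq start site in GRCm38.p6, given 5′ to 3′ on the gene's own strand: Il6ra at chr3:89913197-89913446, minus strand, and Il6st at chr13:112463820-112464069, plus strand. Capitals mark matches, on either strand, to 5 motifs searched: the PU.1 core, whose letters were GAGGAA, the STAT motif, written TTCNNNGAA, the element of the GATA factors, which is spelled AGATAA, the RUNX motif, with the letters TGTGGT, and the GC box, which reads GGGCGG. No motif overlaps another one in these stretches.
Il6ra: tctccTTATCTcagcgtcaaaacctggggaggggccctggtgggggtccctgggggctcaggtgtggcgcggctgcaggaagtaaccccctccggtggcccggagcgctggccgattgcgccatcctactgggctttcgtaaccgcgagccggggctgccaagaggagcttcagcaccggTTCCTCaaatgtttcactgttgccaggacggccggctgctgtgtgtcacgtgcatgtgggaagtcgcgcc
Il6st: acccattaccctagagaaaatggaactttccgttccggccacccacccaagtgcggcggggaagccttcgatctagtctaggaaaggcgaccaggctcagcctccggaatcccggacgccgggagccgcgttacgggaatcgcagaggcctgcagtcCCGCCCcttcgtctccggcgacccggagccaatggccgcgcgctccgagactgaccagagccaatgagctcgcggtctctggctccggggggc
The 2 stretches have similar GC contents, 65.2% and 66.0%, but shared no motif of the search. In Il6ra the capitals are a GATA match, 245 bases before the start, and a PU.1 core, 70 bases before it, both on the other strand. In Il6st they are a GC box on the other strand, 93 bases before the start. Among 32851 RefSeq promoters of this length, 23.3% held the PU.1 core, 7.02% the STAT motif, 9.99% the GATA motif, 14.05% the RUNX motif and 32.7% the GC box. Neither held the STAT letters. A match is a description of the letters and no sign of binding.

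Il6ra read 7.90 and 8.82 in GFP0 and 9.12, 9.20 and 8.97 in GFP1. The GFP2 arrays read 9.19, 7.83 and 8.62, the GFP3 arrays 8.28 and 8.33, and the GFP4 arrays 8.77, 9.98, 8.82 and 9.73. The GFP4 arrays lay above both GFP3 arrays, while 2 of the 4 did not exceed the higher GFP0 array. Il6st read 7.61 and 8.63 in GFP0 and 9.15, 8.18 and 8.47 in GFP1. The GFP2 arrays read 8.91, 8.44 and 8.93, the GFP3 arrays 8.39 and 8.60, and the GFP4 arrays 8.87, 9.93, 8.43 and 9.35. For both chains GFP0 replicate 1 was at or near the bottom, and GFP4 replicates 2 and 4 were the highest of all 14 arrays.

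GFP4 exceeded GFP0 by 0.96 ± 0.41 for Il6ra (SE; 95% interval 0.08 to 1.84; limma adjusted p = 0.289) and by 1.02 ± 0.40 for Il6st (95% interval 0.16 to 1.89; adjusted p = 0.240), neither past the threshold. Without GFP0 replicate 1 the differences were 0.50 and 0.51, and without GFP4 replicate 2 they were 0.75 and 0.76, with no call in any of these. The slopes were 0.11 ± 0.09 for Il6ra (adjusted p = 0.597) and 0.19 ± 0.09 for Il6st (adjusted p = 0.300). The chains correlated at r = 0.767 over the 14 arrays (permutation p = 0.00154, 0.0200 adjusted over 65 relations) and rho = 0.574 (permutation p = 0.0351, adjusted 0.176, which did not pass). Without the 2 arrays farthest from the Il6ra median r was 0.693, and for deviations from the level means it was 0.770. The other Il6ra probe set correlated with the one used at r = -0.14 and with Il6st at r = -0.39, and its GFP4 minus GFP0 was 0.0066, so the correlation of the chains rests on the brighter Il6ra probe set. The brightest of the other Il6st probe sets had r = 0.51 with the one used and GFP4 above GFP0 by 0.76 (limma adjusted p = 0.430). The remaining 2 had r = 0.25 and -0.34, with differences of 0.21 and -0.07. With the mean of each gene's probe sets, both differences were 0.48 (adjusted p = 0.313 for Il6ra and 0.270 for Il6st).

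**Figure D4:**
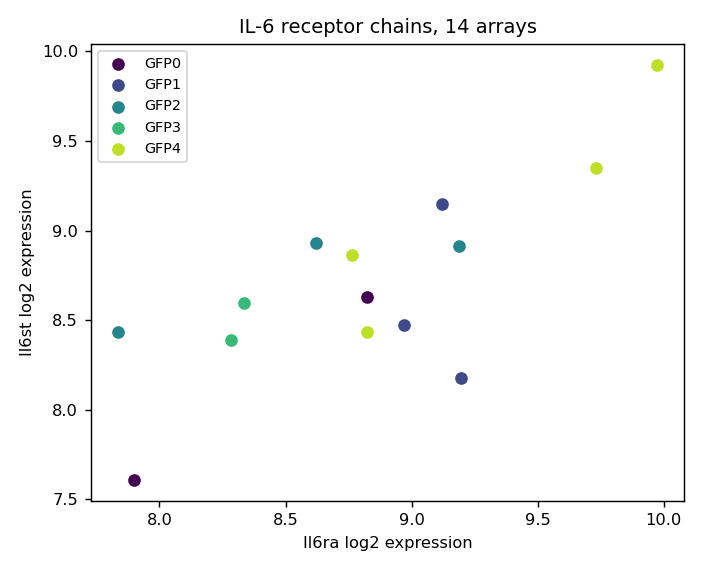
Il6st log2 expression (vertical axis) against Il6ra log2 expression (horizontal axis), with 1 point per array coloured by GFP level. The 2 points at the top right are GFP4 replicates 2 and 4, and the lowest point is GFP0 replicate 1 (Il6ra 7.90, Il6st 7.61).

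Il12rb1 encodes the chain that the receptors for interleukin 12 and interleukin 23 share, best known from T and natural killer cells. GFP0 read 6.34 and 6.995, GFP1 7.25, 7.72 and 7.50, and GFP2 7.49, 7.29 and 7.76. GFP3 read 7.60 and 7.71 and GFP4 7.67, 7.48, 7.68 and 7.94. Both GFP0 arrays lay below all other arrays, and all GFP4 arrays were above GFP0, as for 10.4% of all genes. From GFP1 upward the levels overlapped. The means were 6.67 ± 0.47 (SD, n = 2) in GFP0, 7.49 ± 0.23 (n = 3) in GFP1, 7.51 ± 0.24 (n = 3) in GFP2, 7.65 ± 0.08 (n = 2) in GFP3 and 7.69 ± 0.19 (n = 4) in GFP4.

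Il12rb1 rose with the GFP level, with a slope of 0.22 ± 0.05 (SE; 95% interval 0.11 to 0.33; limma adjusted p = 0.0345), and GFP4 exceeded GFP0 by 1.02 ± 0.23 (95% interval 0.54 to 1.51; adjusted p = 0.0412). The step from GFP0 to GFP1 was 0.82 ± 0.24 (adjusted p = 0.405). Without GFP0 replicate 1, an array with a narrow spread, the slope was 0.16 (adjusted p = 0.211) and the difference 0.69 (adjusted p = 0.291), neither past the threshold. The slope passed in 8 of the 14 fits that left out 1 array. It also missed without GFP1 replicate 1, either GFP3 array, or GFP4 replicate 3 or 4, with values from 0.20 to 0.23 and adjusted p from 0.0582 to 0.108. The difference passed in 5 of 14 such fits; apart from the fit without GFP0 replicate 1 it stayed between 0.94 and 1.35. Its signal lay near the table median of 7.03, and this gene has only 1 probe set with a single symbol.

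Il12rb1 moved with the stem cell genes. The mean of the 17 stem cell genes was 7.72 and 8.15 in GFP0 and lay between 9.85 and 10.5 in GFP4. Over the 14 arrays Il12rb1 correlated with it at r = 0.761 (permutation p = 0.0002, adjusted 0.00433) and rho = 0.675 (permutation p = 0.0099, adjusted 0.161, which did not pass). For deviations from the level means r was 0.639, for which no p was computed. Csf1r ran against the mean of the stem cell genes (r = -0.785, permutation adjusted p = 0.0210), but its rho of -0.723 did not pass (permutation adjusted p = 0.0990). The part of these genes in the differences was not tested. The genes most like Il12rb1 were Tcta (r = 0.931), Ldhb, a chain of lactate dehydrogenase (r = 0.925), and Abcc1, a drug exporter (r = 0.918). Their means also were lowest in GFP0, for Ldhb 10.83 in GFP0, 11.78 in GFP1 and 12.65 in GFP4.

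Genes around the receptors were counted in 5 lists by the limma slope, for which 2.28% of all genes rose and 1.07% fell. Of 34 other cytokine and growth factor receptors, 2 rose along the levels and 2 fell, and the median slope was 0.03. Il7r, the interleukin 7 receptor chain of early lymphoid cells, fell by 0.88 per level (SE 0.10; limma adjusted p = 0.000957), from 10.44 and 10.04 in GFP0 to between 6.39 and 7.60 in GFP4. Pdgfrb fell by 0.61 per level (SE 0.12; adjusted p = 0.0172), and its GFP4 arrays, from 6.46 to 8.04, were below all other arrays. Ghr, the growth hormone receptor, rose by 0.42 per level (SE 0.09; adjusted p = 0.0283), and Crlf2, the receptor of thymic stromal lymphopoietin, by 0.21 (SE 0.05; adjusted p = 0.0402). Il7r is also one of the lymphoid genes, and Pdgfrb the 1 endothelial and stromal gene that fell. Of the 14 fits that left out 1 array, the slope passed in 14 for Il7r, 12 for Pdgfrb, 9 for Ghr and 5 for Crlf2, and without GFP0 replicate 1 only that of Il7r passed. When all probe sets of a gene were averaged, the slopes of Pdgfrb, -0.24 (adjusted p = 0.0739), and Ghr, 0.14 (adjusted p = 0.249), were smaller and did not pass.

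Of 15 ligands 0 rose and 2 fell, where 2.28% of all genes rose and 1.07% fell. Their median slope was -0.05, and 0.008 without GFP0 replicate 1. When dim genes were left out, 4 ligands remained. Il12a, the smaller chain of the ligand of the Il12rb1 receptor, fell by 0.18 per level (limma adjusted p = 0.0432), and Osm, oncostatin M, which signals through Il6st, by 0.17 (adjusted p = 0.0496). The fall of Il12a was not steady, with means of 8.23 in GFP0, 8.77 in GFP1, 8.61 in GFP2, 7.94 in GFP3 and 7.74 in GFP4. Its GFP4 minus GFP0 of -0.49 did not pass (limma adjusted p = 0.259). Il12a passed in 3 of the 14 fits without 1 array and Osm in 1, and no ligand passed without GFP0 replicate 1. Of 22 signalling genes (Janus kinases, STAT factors and adaptors) none passed in limma with the brightest probe set. At an unadjusted p 9 did, beside 16.7% of all genes, and 19 had a positive slope, where 8215 of 18194 genes did. The median slope of the 22 was 0.11, and 0.09 without GFP0 replicate 1. All 22 stayed when dim genes were left out, and the share of positive slopes among genes of like brightness was not counted. The smallest p were those of Jak1, with a slope of 0.24 ± 0.07 (adjusted p = 0.0897), and Pik3r1, a regulatory subunit of phosphoinositide kinase, with 0.32 ± 0.10 (adjusted p = 0.114). With the mean over its probe sets the slope of Pik3r1 was 0.25 and passed (limma adjusted p = 0.00724). Its GFP4 minus GFP0 of 1.10 then passed as well (adjusted p = 0.0129).

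Among 21 brakes on cytokine signalling, 3 rose and none fell, where 2.28% of all genes rose and 1.07% fell. The median slope of the brakes was 0.06. Cish, a STAT-induced member of the SOCS family, read 9.65 and 9.32 in GFP0 and 11.73, 10.98, 11.31 and 11.21 in GFP4. It rose by 0.49 ± 0.06 per level (limma adjusted p = 0.00111) and passed in 14 of 14 fits that left out 1 array. Socs2, another member, rose by 0.58 ± 0.10 per level (adjusted p = 0.00702), from 6.91 and 6.88 in GFP0 to between 8.49 and 9.70 in GFP4. Dusp4, a phosphatase of MAP kinases, rose by 0.56 ± 0.11 per level (adjusted p = 0.0159). Without GFP0 replicate 1 only Cish of these 3 passed, while Socs2 had an adjusted p of 0.0530 and Dusp4 of 0.109. Dusp4 also missed without GFP3 replicate 2 (adjusted p = 0.0590). With the mean over its probe sets the slope of Socs2 was 0.23 (adjusted p = 0.0119).

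Of 19 known targets of cytokine signalling 2 rose and 1 fell, where 2.28% of all genes rose and 1.07% fell. The median slope of the targets was 0.03. Icam1, an adhesion molecule, rose by 0.28 ± 0.06 per level (limma adjusted p = 0.0245), and Pim3, a serine kinase, by 0.16 ± 0.04 (adjusted p = 0.0431). Bcl2, which protects from cell death, fell by 0.35 per level (SE 0.09; adjusted p = 0.0475). Icam1 passed in 11 of the 14 fits without 1 array and Pim3 and Bcl2 in 3 each, and none of the 19 passed without GFP0 replicate 1. With the mean over its probe sets the slope of Pim3 was 0.07 (adjusted p = 0.293).

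**Figure D5:**
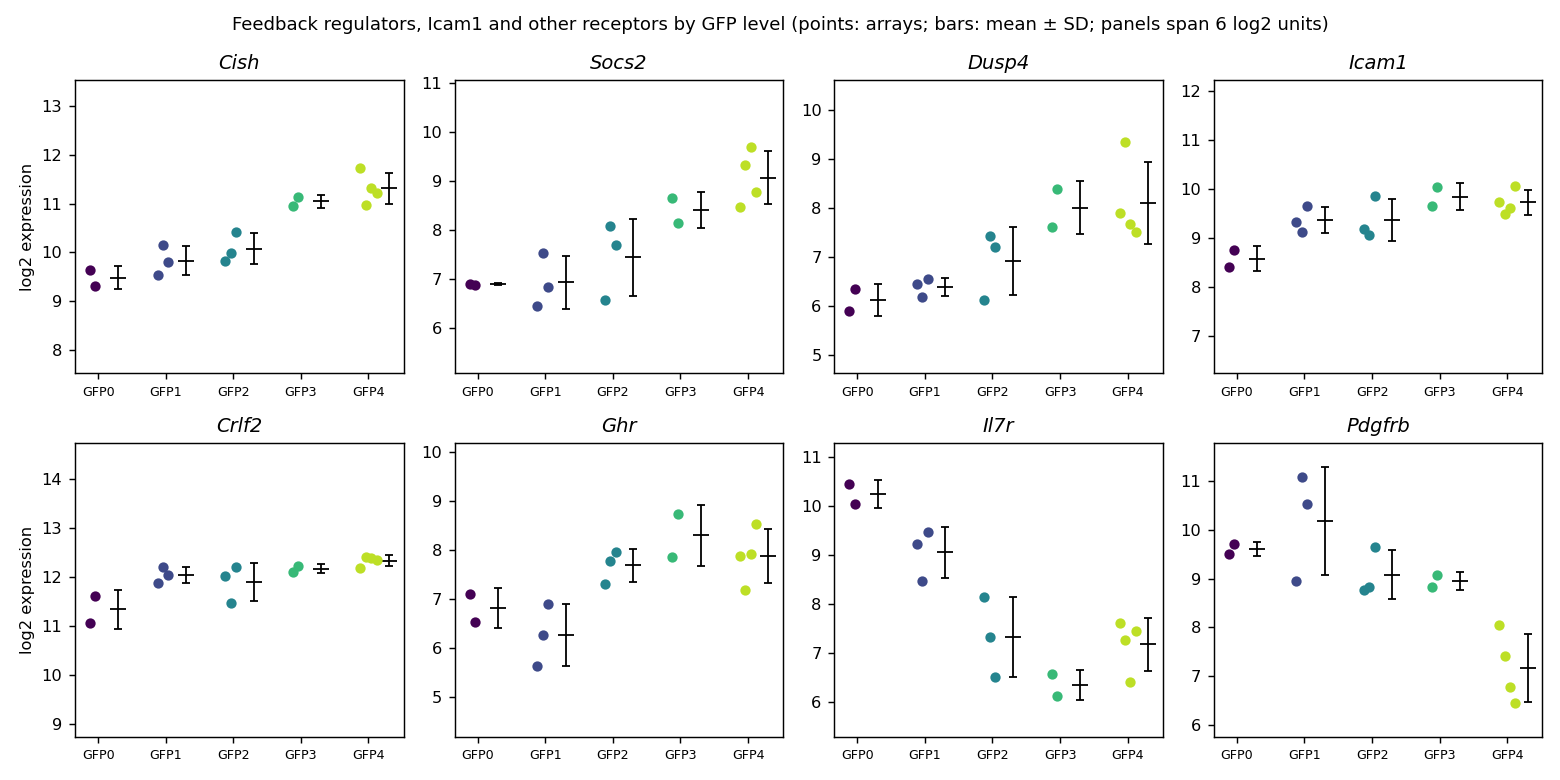
Log2 expression (vertical axes) of 8 genes of the pathway lists by GFP level (horizontal axes), with 1 point per array and bars for the mean ± SD of each level. Cish and Socs2 are higher in GFP4 than in GFP0 in every array, and Il7r and Pdgfrb are lower.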

How the data were processed

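Sorted cells gave RNA that was amplified and made into biotin-labelled cRNA for the arrays, per the labels' protocols. The submitters' processing notes name GCOS, RMA and affy, without versions. The deposited values are log2 expression per probe set, which RMA background-corrects, quantile-normalizes and summarizes, and genes were not centred. They run from 2.69 to 15.1. The genome build is not given in the sources used here.

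Of 45101 probe sets, 34958 had 1 symbol, 932 several and 9211 none. Of the first, 34754 matched RefSeq (GRCm38.p6) by gene identifier, and 0 symbols changed. All columns matched a sample. Dim probe sets were kept. Promoters were found for 7 of 10 receptors.

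In limma 3.58.1 (R 4.3.3) group means were fitted to all 14 arrays with empirical Bayes, without a replicate block. The levels shared the estimate of the spread, since 2 groups have only 2 arrays. Tests were two-sided. Correlations used 100000 permutations of all 14 arrays without regard to level. A trend along the levels that both sides of a correlation share therefore enters its p-value. The number of arrays limits the precision. The scripts were tested on simulated data. Members and lists were chosen with earlier results of these data known. Named genes were the 10 receptors, up to 4 per pathway list by smallest slope p among those that passed (where none did, 2), and the 3 most correlated genes of 4 receptors: those past the slope or GFP4 against GFP0, then those with the smallest p for any difference. Some other genes of the lists were not analysed here. Alternatives were median centring, a filter on dim genes, other uses of probe sets, array weights, the replicate block, leaving out arrays, covariates of RNA quality, the compared arrays alone and regression on the level. Figures were drawn with matplotlib 3.10.9.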

Additional observations from a re-analysis of the deposited data

Results flagged for a closer look

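Csf1r read 11.45 in GFP4 replicate 2, far from the other 3 GFP4 arrays, of which the nearest read 8.90. The gap was 0.878 of the group's whole range, above Dixon's critical value of 0.829. It was the only one of the 10 receptors with such an array in GFP4, the only level with 4 or more arrays, and chance flags about 1 in 20 groups. The mean of the early myeloid genes was 11.71 in that array and 8.78, 9.30 and 9.08 in the others. Their part in the Csf1r value was not tested.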

How the results depend on the processing

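The count of 306 genes for GFP4 against GFP0 became 2 with array weights, 67 with the replicate number as a block, 41 without both GFP0 replicate 1 and GFP4 replicate 1, 142 with covariates of RNA quality (the 3 prime minus the 5 prime signal of Actb and of Gapdh) and 58 with the GFP0 and GFP4 arrays alone. The 609 genes of the slope became 90, 337, 156 and 165 under the first 4 of these, and the 127 with any difference became 335, 34, 20 and 11, and 38 with median centring. Departure from a line, with 0 genes, gave 1 without both arrays, and the steps, with 0, gave 2 with array weights and 2 without both arrays. Leaving out each array in turn gave 51 to 363 genes for GFP4 against GFP0, 182 to 768 for the slope, 28 to 158 for any difference, 0 to 1 for the departure and 0 to 3 for the steps. Of the receptors it left 0 to 1 called for GFP4 against GFP0, 0 to 2 for the slope, and 0 to 0 for any difference and the departure.

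The 1 receptor called for GFP4 against GFP0 became 0 with median centring, every probe set by itself, array weights, the block, both arrays left out, the covariates, and the GFP0 and GFP4 arrays alone. For the slope it became 0 with weights, the block, both arrays left out, the covariates or a regression on the level, and 2 with the mean over probe sets. Under the block Il12rb1 had a slope of 0.20 (limma adjusted p = 0.103). Its adjusted p for the slope ran from 0.0244 to 0.226 over all alternatives.

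Some values changed sign, most of them near 0. GFP4 minus GFP0 of Flt3 was -0.0014 under the block, and its slope -0.0071 under the block and -0.042 with the covariates. The slope of Il3ra was 0.0064 with median centring, 0.014 under the block, 0.020 without both arrays, 0.031 with the covariates, and -0.023 to 0.019 leaving out each array. With the second Il6ra probe set, chosen after seeing the data, the correlation with Il6st was -0.39 in place of 0.767. The cause of none of these was tested. For single genes, 1385 other values kept their direction and side of the threshold, 203 no longer passed, 12 now passed and 12 changed sign. The 1385 include values that passed in neither fit and had no call to lose, so they do not measure how stable the calls were. Of the calls, the slope of Il12rb1 passed in 13 of 24 alternatives and its GFP4 minus GFP0 in 9 of 24.

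Same-numbered arrays of different levels deviated from their level means with correlations of -0.26 to 0.58, above 0.1 in 9 of 23 pairs. Differently numbered arrays gave -0.63 to 0.48, above 0.1 in 20 of 54 pairs, so the numbers were not taken to pair the samples. With 2 arrays in GFP0 and no detection calls, small differences and dim probe sets are the least certain.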
